A study of Drosophila melanogaster with 8 samples.

Results

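The genes of mRNA decapping and deadenylation examined in Drosophila S2 cells were 10: DCP2, Dcp1, Edc3, Patr-1, me31B, tral, pcm, Not1, Not3 and twin. The 10 genes were chosen by their function, and the choice was made knowing that the DCP2 signal of control cells was far lower in ribosome-bound than in total RNA. Differences between ribosome-bound and total RNA in control cells are therefore given as a description, without a test. Of the 10 genes, 8 have a probe set assigned to that gene alone, among 17105 features on the array. Each of the 8 has 1 such probe set, and all 8 passed the filter on low signal that left 10263 features for testing. No probe set in the annotation used here carries the symbol of tral or Not1 alone, so these genes were not analysed here. The annotation spells Dcp1 as DCP1.

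Most cytoplasmic mRNAs are degraded in steps. The CCR4-NOT complex shortens the poly(A) tail; its scaffold is Not1, Not3 is a further subunit and twin, the fly CCR4, is one of its nucleases. DCP2, helped by its partner Dcp1, then removes the cap, and the activators Edc3, Patr-1, the helicase me31B and tral promote this step, several of them also by repressing translation. The exonuclease pcm, the fly XRN1, degrades the uncapped body from its 5′ end. Many of these proteins gather in cytoplasmic granules called P bodies, which have been studied at length in S2 cells.

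S2 cells are a line of embryonic, haemocyte-like origin, and the labels call their genotype wildtype. They were treated with double-stranded RNA (dsRNA) against DENR or, as the control, against GFP. DENR is a factor of translation re-initiation after short upstream open reading frames. From both treatments the study profiled translated RNA, taken from the 80S (single ribosome) and polysome peaks of a polysome profile, and total RNA. The 4 groups, with 2 arrays each, were thus DENR translated, DENR total, GFP translated and GFP total. Each treatment was done in 2 biological replicates, per the design text. Values are log2 array signals and n is 2 arrays per group throughout. The standard errors (SE) come from 1 limma fit that pools the spread over all 8 arrays. Because the processing brings the arrays to a common scale, each value is relative to the other transcripts on its array, and a low share of a transcript on ribosomes is not an absolute amount. Signals of different genes cannot be ranked against each other, as each probe set has its own response.

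Array medians ran from 2.32 to 2.48. Of 9 haemocyte markers, 8 had a mean log2 signal above 5, the exception being NimC1 (3.52). None of the markers of neurons (3 on the array), muscle (3), germline (3) or fat body (2) did. Among blood cell subtypes, PPO2 (5.26) of 3 crystal cell markers and PPO3 (7.60) of 3 lamellocyte markers did. The target of the knockdown read 5.40 and 4.46 on the DENR translated arrays, against 8.41 and 8.26 on the GFP translated arrays, a fall by 3.40 ± 0.25 (adjusted p = 0.000203, limma). In total RNA it read 7.38 and 7.60 after DENR dsRNA, against 8.28 and 8.18 after GFP dsRNA, and did not pass the test (-0.74 ± 0.25, adjusted p = 0.170). One array stood apart. On the first principal component, with 65.8% of the variance, DENR total replicate 1 lay at -9.0, against -27.3 for DENR total replicate 2 and -29.6 and -35.1 for the GFP total arrays, with the translated arrays between 22.3 and 29.4. Of the 8 genes, 6 differed between translated and total RNA of GFP cells by more than 0.5. For all 6, replicate 1 lay on the translated side of replicate 2, as it did for 85.6% of the 2893 features past that size. Without it, DENR in total RNA was at -0.63 (adjusted p = 0.539), and differences of the other genes without it stand beside the values below.

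**Figure D1:**
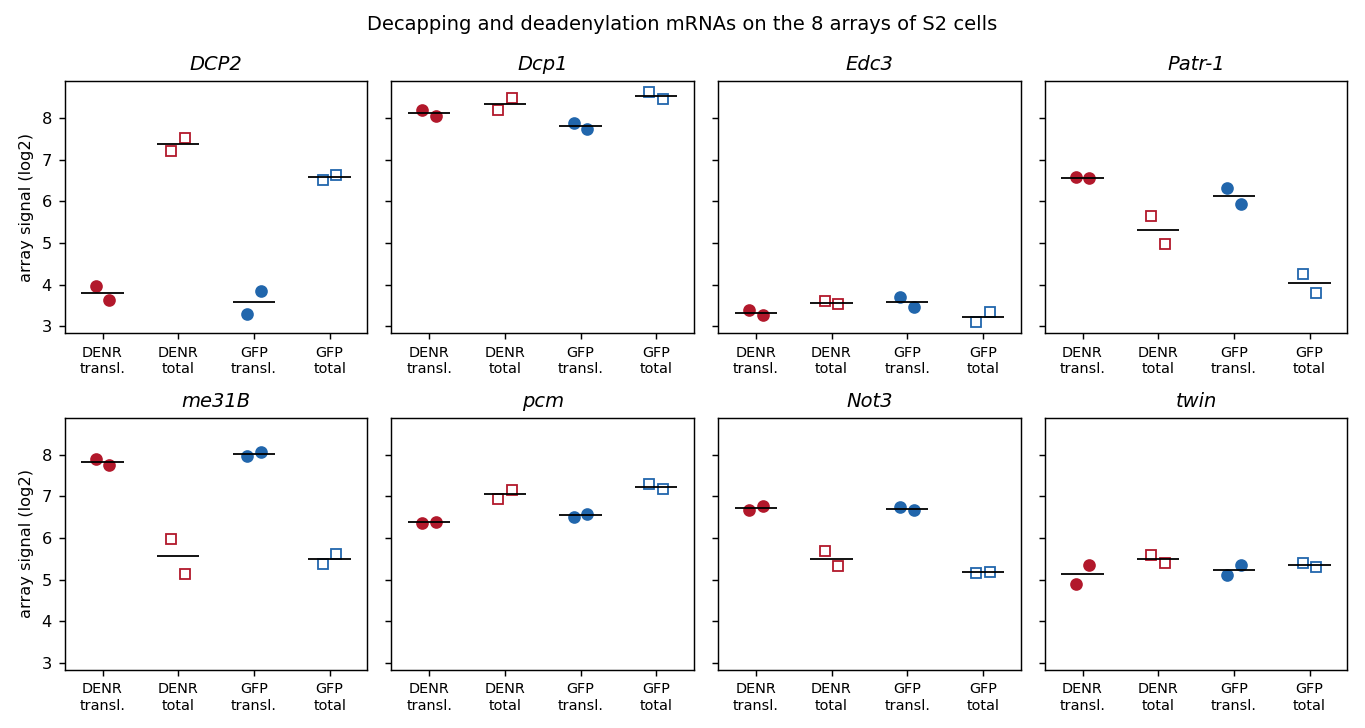
Array signal (log2, vertical axis) of the 8 measured genes in the 4 groups (horizontal axis: DENR translated, DENR total, GFP translated, GFP total). Points are single arrays, filled for translated and open for total RNA, and lines are group means. DCP2 lies between 3.29 and 3.96 on the 4 translated arrays and between 6.51 and 7.53 on the 4 total arrays, whereas me31B, Patr-1 and Not3 lie higher on the translated arrays.

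The mRNA of the decapping enzyme was far lower in the translated fraction than in total RNA. DCP2 read 3.96 and 3.62 on the DENR translated arrays, against 7.20 and 7.53 on the DENR total arrays. The groups lay far apart, and the translated signal was 11.9-fold lower, a log2 difference of -3.57 ± 0.21 (adjusted p = 4.76e-05, limma with Benjamini-Hochberg adjustment over all features). This was the lowest difference of all 10263 features, of which 90% lay between -0.59 and 0.86. For DCP2 it was -3.73 when DENR total replicate 1 was left out (adjusted p = 3.32e-05). In GFP cells, whose values entered the choice of the genes, DCP2 read 3.29 and 3.85 in translated RNA and 6.51 and 6.64 in total RNA. The difference was -3.00 ± 0.21 and second from the lowest of all features. Differences between fractions were alike in both treatments over all features (Pearson r = 0.819). A low DCP2 value in DENR cells was therefore foreseeable from the choice. The DCP2 signals on the translated arrays were low, which limits how well the size of the fold is known. The probe set of DCP2 is of the type that can match several transcripts, and the sources used here do not say which part of the transcript it covers.

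Dcp1, the partner and activator of DCP2, was not called. Its log2 signal was 8.19 and 8.05 on the DENR translated arrays, against 8.20 and 8.49 on the DENR total arrays. The difference of -0.22 ± 0.15 did not pass the test (adjusted p = 0.387, 95% interval -0.56 to 0.11), nor did the -0.37 found without DENR total replicate 1. In GFP cells Dcp1 read 7.89 and 7.73 in translated and 8.61 and 8.47 in total RNA, a difference of -0.73 ± 0.15.

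The activators went the other way or stayed near 0. The mRNA of me31B, a DEAD-box helicase that represses translation and promotes decapping, was 4.82-fold higher in translated than in total RNA of DENR cells. It read 7.91 and 7.76 on the DENR translated arrays, against 5.99 and 5.15 on the DENR total arrays, and the difference of 2.27 ± 0.23 passed the test (adjusted p = 0.000278). Only 8 of the 10263 features had a higher one. The me31B difference was 2.69 (adjusted p = 3.32e-05) without DENR total replicate 1, the higher of the 2 total arrays. GFP cells read 7.98 and 8.07 in translated and 5.38 and 5.63 in total RNA, a difference of 2.52 ± 0.23, also ninth from the top.

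Patr-1, which links the deadenylated mRNA to the decapping enzyme, was 2.39-fold higher in translated RNA of DENR cells. Its signal was 6.58 and 6.56 on the DENR translated arrays, against 5.65 and 4.98 on the DENR total arrays (1.25 ± 0.23, adjusted p = 0.00654). The difference was 1.59 without DENR total replicate 1 (adjusted p = 0.00102) and 1.25 without DENR translated replicate 1, where it missed the threshold (adjusted p = 0.0510). GFP cells read 6.33 and 5.95 in translated and 4.26 and 3.81 in total RNA, a difference of 2.10 ± 0.23. Edc3, an enhancer of decapping, had low signals everywhere, 3.11 to 3.70 over the 8 arrays. It read 3.38 and 3.27 on the DENR translated arrays, against 3.60 and 3.53 on the DENR total arrays, and did not pass the test (-0.24 ± 0.15, adjusted p = 0.337, 95% interval -0.57 to 0.09), nor at -0.20 without DENR total replicate 1. In GFP cells Edc3 ran the other way, at 3.70 and 3.45 in translated and 3.11 and 3.35 in total RNA, a difference of 0.35 ± 0.15.

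The exonuclease pcm was lower in translated RNA, by far less than DCP2. It read 6.36 and 6.39 on the DENR translated arrays, against 6.94 and 7.16 on the DENR total arrays, a 1.60-fold lower signal (-0.67 ± 0.14, adjusted p = 0.00899). This call was lost without DENR total replicate 2 (adjusted p = 0.0637), without DENR translated replicate 1 (0.0722) or without DENR translated replicate 2 (0.0574), and was kept at -0.79 without DENR total replicate 1 (0.00893). In GFP cells pcm read 6.52 and 6.57 in translated and 7.30 and 7.17 in total RNA, a difference of -0.69 ± 0.14.

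Of the deadenylase genes, Not3 was higher in translated RNA and twin was not called. Not3 read 6.68 and 6.76 on the DENR translated arrays, against 5.69 and 5.32 on the DENR total arrays, a 2.31-fold higher signal (1.21 ± 0.15, adjusted p = 0.000747). For Not3 the difference was 1.40 without DENR total replicate 1 (adjusted p = 0.000276), and in GFP cells it was 1.53 ± 0.15, from 6.73 and 6.66 in translated and 5.16 and 5.19 in total RNA. The nuclease twin read 4.90 and 5.34 on the DENR translated arrays, against 5.58 and 5.40 on the DENR total arrays. Its difference was -0.37 ± 0.17 (adjusted p = 0.200, 95% interval -0.75 to 0.02) in DENR cells, -0.27 there without DENR total replicate 1, and -0.11 ± 0.17 in GFP cells.

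In DENR cells, then, 3 of the 8 measured genes were higher in translated RNA (me31B, Patr-1 and Not3), against 9.13% of all features, and 2 were lower (DCP2 and pcm), against 5.85% of all features. The same 5 genes were called without DENR total replicate 1. The 3 others did not pass the test. DCP2 was chosen knowing its low value in GFP cells, so its place among the lower genes is no independent result. Of the lower genes, this leaves pcm. The 8 genes spanned 5.84 log2 units, with a median of -0.23, against a median of -0.02 over all features.

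**Figure D2:**
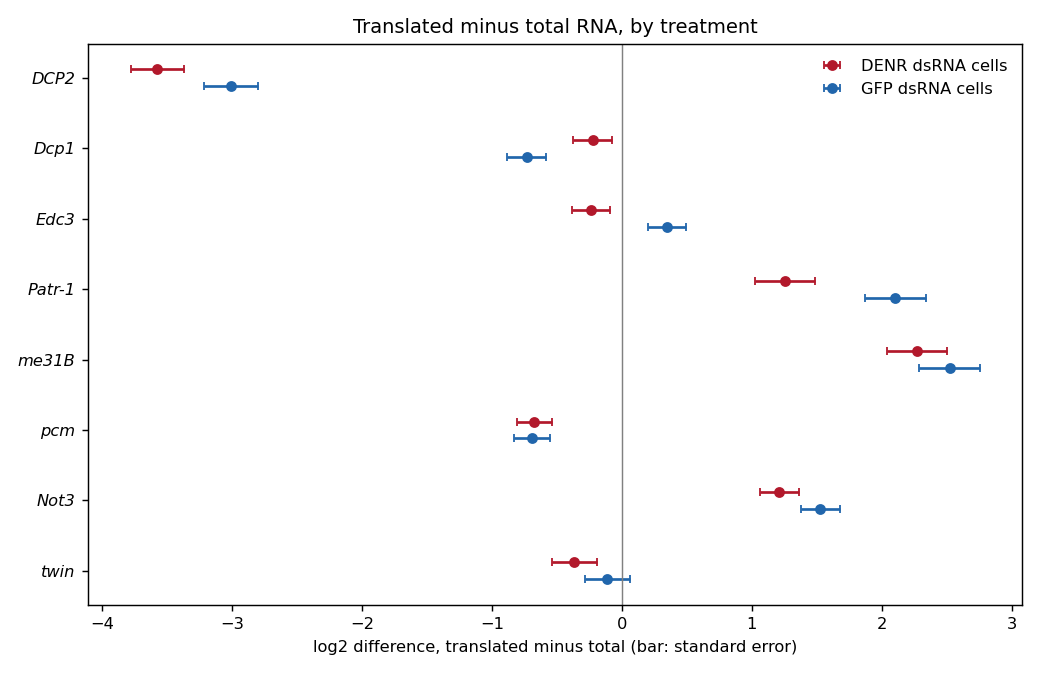
Log2 difference, translated minus total RNA (horizontal axis), of the 8 measured genes (vertical axis) in DENR cells (upper point of each pair) and GFP cells (lower point). Bars are standard errors from the limma fit. DCP2 lies at -3.57 in DENR cells and -3.00 in GFP cells, and me31B at 2.27 and 2.52.

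**Figure D3:**
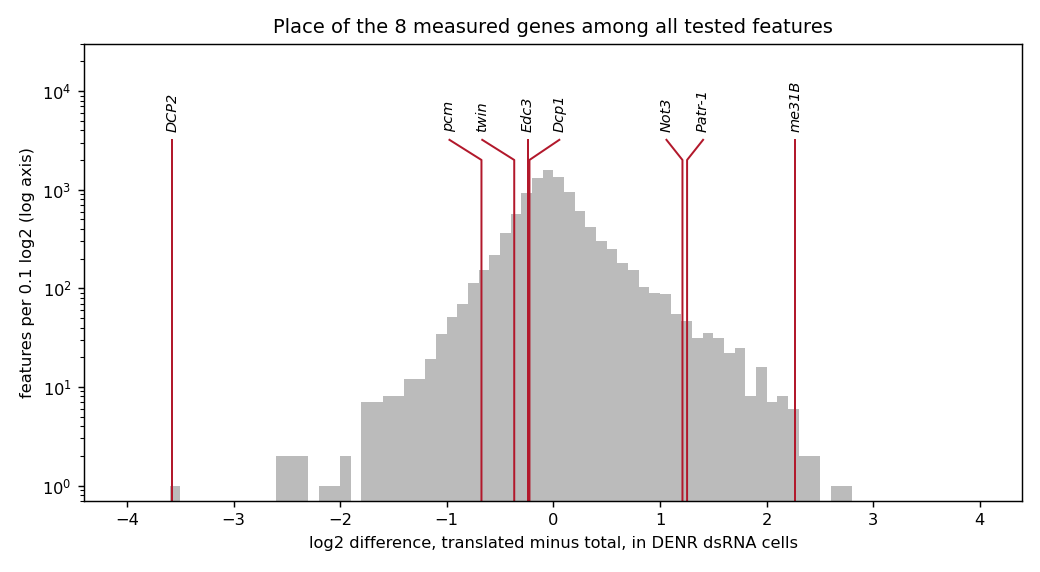
Number of features (vertical axis, logarithmic) by log2 difference of translated minus total RNA in DENR cells (horizontal axis, bins of 0.1). Lines mark the 8 measured genes. DCP2 stands alone at the lower end at -3.57, and me31B lies near the upper end at 2.27.

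The comparison of total RNA asked whether the levels of these mRNAs changed on DENR knockdown. Patr-1 was the 1 gene of 8 that passed the test, and 7 did not, against 0.877% of all features that rose. It read 5.65 and 4.98 on the DENR total arrays, against 4.26 and 3.81 on the GFP total arrays. The arrays did not overlap, and Patr-1 rose 2.43-fold (1.28 ± 0.23, adjusted p = 0.0279, limma). Without DENR total replicate 1 the rise was 0.94 and was no longer called (adjusted p = 0.127). The call was also lost without GFP total replicate 2 (1.05, adjusted p = 0.201) and without either DENR translated array (adjusted p = 0.0619 for each). It was lost as well with array medians brought to 1 value (1.32, adjusted p = 0.0570) and with only the 4 arrays compared (adjusted p = 0.125). Of the 9 haemocyte markers, 4 fell in the same comparison (He, Hml, NimC1 and Sr-CI) and 0 rose, where 72 of 10263 features fell. The other markers did not pass. The median difference of the 9 was -0.18, and -0.49 without DENR total replicate 1. The mean log2 signal of these markers was 7.22 and 6.96 on the DENR total arrays, against 8.02 and 7.80 on the GFP total arrays. Whether their change has a part in the values of Patr-1 was not tested, and in such bulk RNA fewer cells of a kind and less RNA per cell cannot be told apart.

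DCP2 read 7.20 and 7.53 on the DENR total arrays, against 6.51 and 6.64 on the GFP total arrays. The arrays did not overlap, and the difference was 0.79 ± 0.21 (95% interval 0.33 to 1.25), not called in the main fit. It was 0.95 without DENR total replicate 1. A crossed replicate block, added after seeing the data, raised the features called from 162 to 903, DCP2 among them. That call of DCP2 is not used as a result. The GFP arrays are those that entered the choice of DCP2, so its values in this comparison are a description only. The other 6 genes ran from -0.19 ± 0.15 for Dcp1 and -0.19 ± 0.14 for pcm to 0.34 ± 0.15 for Edc3 and 0.33 ± 0.15 for Not3. None passed (adjusted p between 0.270 and 0.913), and without DENR total replicate 1 the values were -0.05 for Dcp1, -0.08 for pcm, 0.30 for Edc3, 0.15 for Not3 and 0.05 for twin. The value of me31B was 0.06 ± 0.23, and -0.36 without DENR total replicate 1, whose me31B signal of 5.99 lay well above the 5.15 of its mate.

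In translated RNA, 0 of the 8 genes passed the test between DENR and GFP cells, where 1.34% of all features did. None reached an unadjusted p under 0.05 either, against 13.1% of all features, so that 0 of 8 lay near the background. The widest difference was that of Patr-1, at 6.58 and 6.56 on the DENR translated arrays, against 6.33 and 5.95 on the GFP translated arrays (0.43 ± 0.23, adjusted p = 0.495, 95% interval -0.09 to 0.95). Dcp1 read 8.19 and 8.05 in DENR cells, against 7.89 and 7.73 in GFP cells (0.31 ± 0.15, adjusted p = 0.415). DCP2, at low signals, differed by 0.22 ± 0.21, with overlapping arrays, and Not3 by 0.02 ± 0.15. The remaining differences were -0.11 ± 0.17 for twin, -0.17 ± 0.14 for pcm, -0.19 ± 0.23 for me31B and -0.25 ± 0.15 for Edc3. For me31B the 95% interval of -0.71 to 0.33 shows how large a change these arrays could have missed. The GFP translated arrays entered the choice of DCP2, so its values here (95% interval -0.24 to 0.68) are a description only. Of the 9 haemocyte markers the same 4 (He, Hml, NimC1 and Sr-CI) fell in this comparison, where 71 of 10263 features fell. The other markers did not pass. The mean log2 signals of the markers were 7.27 and 7.38 on the DENR translated arrays, against 8.31 and 8.44 on the GFP translated arrays.

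**Figure D4:**
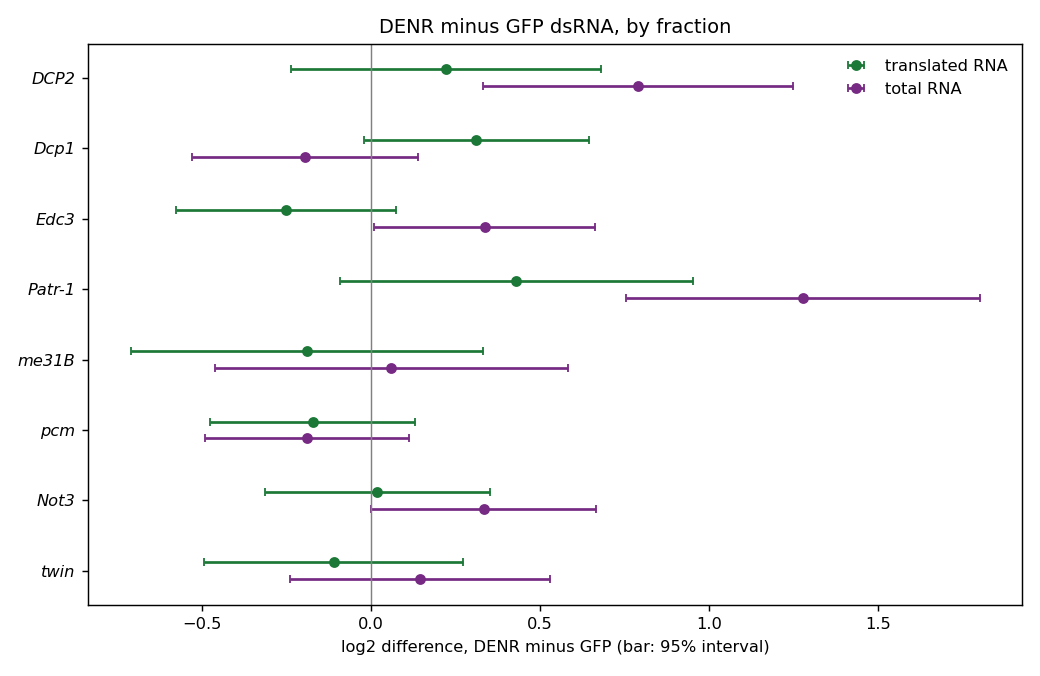
Log2 difference, DENR minus GFP dsRNA (horizontal axis), of the 8 measured genes (vertical axis) in translated RNA (upper point of each pair) and total RNA (lower point). Bars are 95% intervals from the limma fit. Patr-1 in total RNA, at 1.28, was the 1 value that passed the test, and no difference in translated RNA lay beyond 0.43 in size.

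Ribosome loading, the change in translated RNA beyond that in total RNA, was called for 0 of the 8 genes and for 0% of all features (0 of 10263) in the limma fit. Even DENR, the target of the knockdown, was not called, at -2.66 ± 0.35 (adjusted p = 0.101, limma). The 0 calls therefore do not show that loading was unchanged. Before adjustment, 3 of the 8 genes and 1022 features (9.96%) had p under 0.05. The 3 were Edc3 (-0.59 ± 0.21), Patr-1 (-0.85 ± 0.33) and Dcp1 (0.51 ± 0.21), each with adjusted p = 0.480. The loading value of pcm was 0.02, that of Not3 -0.31 ± 0.21, that of twin -0.26 ± 0.24 and that of me31B -0.25 ± 0.33 (adjusted p = 0.792). The loading value of DCP2 was -0.57 ± 0.29. It is given as a description, because it subtracts the GFP difference that entered the choice of DCP2. Without DENR total replicate 1, Patr-1 was at -0.51, Edc3 at -0.55, Dcp1 at 0.36, DCP2 at -0.73, Not3 at -0.13 and twin at -0.16, with 0 genes called. The values of me31B (0.17) and pcm (-0.10) changed sign without it.

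The wider decay machinery was described from 4 further lists with 52 entries, of which 43 genes were tested. Between DENR and GFP cells, 0 of the 43 passed limma's test in total RNA, in translated RNA or in ribosome loading, against 1.58%, 1.34% and 0% of all features. An unadjusted p under 0.05 was found for 7, 6 and 7 of the 43, against 17.6%, 13.1% and 9.96% of all features. Without DENR total replicate 1 these numbers fell in total RNA and in loading and rose in translated RNA, and again none of the 43 was called. The share of all features at that level was not computed for that fit. Between translated and total RNA of DENR cells, 10 of the 43 were higher and 3 lower, against 9.13% and 5.85% of all features, so that the number lower lay near the background. Leaving out DENR total replicate 1 changed in part which genes of the lists were called.

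Of 6 other decapping factors tested, 3 were higher in translated RNA of DENR cells and 0 lower (median 0.31), against 9.13% and 5.85% of all features and a median of -0.02. The strongest was 4E-T, a partner of the cap-binding protein eIF4E that acts with me31B. It read 6.46 and 6.24 on the DENR translated arrays, against 4.64 and 4.62 on the DENR total arrays (1.71 ± 0.17, adjusted p = 0.000238), and this call held in all 19 alternatives, at 1.72 without DENR total replicate 1. The scaffold Ge-1 (0.70 ± 0.20, adjusted p = 0.0428) and LSm3 (0.51 ± 0.14, adjusted p = 0.0299), of the LSm ring that binds deadenylated ends, were weaker. Each of them lost the call without DENR total replicate 2 (adjusted p = 0.254 and 0.0735), without DENR translated replicate 1 (0.183 and 0.216) and without DENR translated replicate 2 (0.157 and 0.0679). In all, Ge-1 lost it in 9 of 19 alternatives, among them the replicate block (adjusted p = 0.0615), the culture as a random effect (0.0805) and either GFP total array left out (0.0538), but not without DENR total replicate 1 (0.96). LSm3 lost it in 6 of 19, among them the culture as a random effect (adjusted p = 0.0585) and DENR total replicate 1 left out (0.104). The LSm1, LSm7 and Dcps genes did not pass.

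Of 11 other deadenylase genes, 2 were higher, 1 was lower and 8 did not pass (median -0.20). With 9.13% and 5.85% of all features called, counts this small lay near the background. Cnot4, a ubiquitin ligase associated with CCR4-NOT, read 6.91 and 7.09 on the DENR translated arrays, against 6.03 and 5.48 on the DENR total arrays (1.24 ± 0.19, adjusted p = 0.00215, and 1.52 without DENR total replicate 1). Rga, the fly NOT2, read 6.01 and 6.17, against 7.26 and 6.74 (-0.91 ± 0.19, adjusted p = 0.00954), and lost the call without DENR translated replicate 1 (adjusted p = 0.0857). Its difference was -0.65 without DENR total replicate 1 (adjusted p = 0.0381). The call of angel, a relative of CCR4 (0.51 ± 0.12, adjusted p = 0.0215), was lost when any 1 of the 4 DENR arrays was left out (adjusted p = 0.0676 to 0.130). Pop2, the CAF1 nuclease, did not pass in any of the tested comparisons. It came nearest in total RNA of DENR against GFP cells, at 0.85 ± 0.19 (adjusted p = 0.0584, limma). The RNA exosome and Ski complex degrade RNA from the 3′ end. All 14 tested genes of their list, which also holds HBS1 and pelo, lay between -0.31 and 0.43 with 0 calls (median 0.04).

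Among 12 tested RNA-binding proteins that recruit decay factors or act in mRNP granules, 5 were higher, against 9.13% of all features, 2 were lower, against 5.85%, and 5 did not pass (median 0.56). Among the higher genes, Fmr1 lost the call in 8 of 19 alternatives, gw in 4 and pum in 2. With only the arrays compared, both gw (adjusted p = 0.0545, limma) and Fmr1 (adjusted p = 0.0697) lost it. The poly(A)-binding protein gene pAbp was the lowest. It read 9.07 and 8.58 on the DENR translated arrays, against 10.52 and 10.41 on the DENR total arrays, a 3.11-fold lower signal (-1.64 ± 0.19, adjusted p = 0.000567). The granule protein gene rin, the fly G3BP, was also lower, at 5.36 and 5.30, against 6.24 and 6.62 (-1.10 ± 0.18, adjusted p = 0.00336). The gene smg, whose product Smaug recruits CCR4-NOT to its targets, read 4.32 and 4.74, against 3.31 and 2.27 (1.74 ± 0.30, adjusted p = 0.00422). These total signals were low and far apart, and the smg difference ran from 1.22 to 2.26 over the alternatives. The gene roq, the fly Roquin (0.84 ± 0.16, adjusted p = 0.00720), was higher too but lost the call without DENR translated replicate 1 (adjusted p = 0.0760). Leaving out DENR total replicate 1 gave -1.58 for pAbp, -1.29 for rin, 2.26 for smg and 0.88 for roq, all called.

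**Figure D5:**
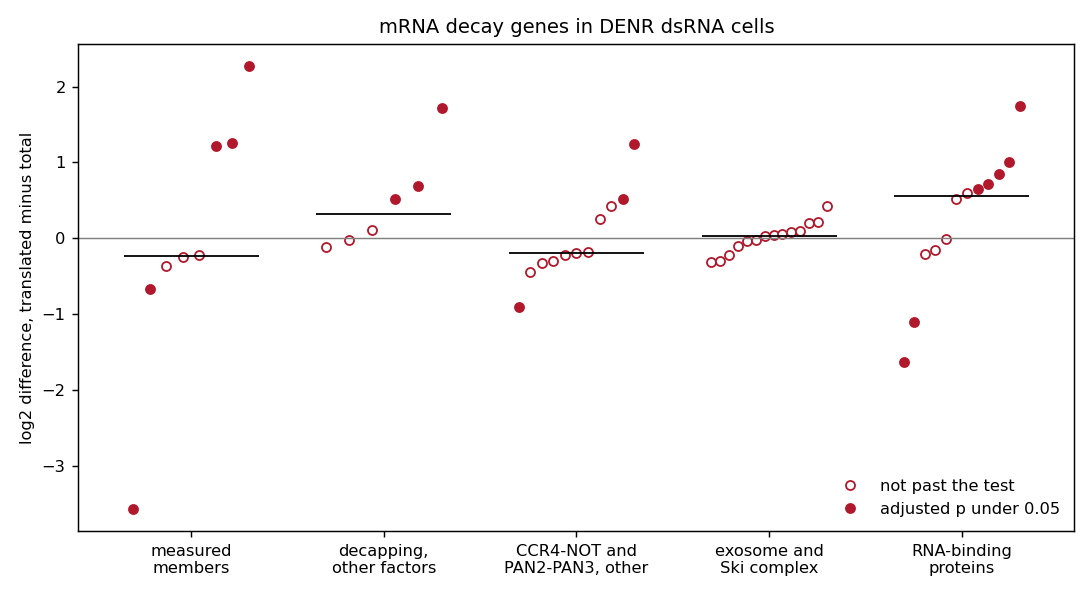
Log2 difference, translated minus total RNA in DENR cells (vertical axis), of the 8 measured genes and of the tested genes of the 4 wider lists (horizontal axis). Points are genes, filled where the adjusted p is under 0.05, and lines are medians. The genes of the exosome and Ski list lie between -0.31 and 0.43, while DCP2 at -3.57 and me31B at 2.27 are the extremes of the plot.

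The genes whose signals over the 8 arrays ran most like those of DCP2 were Ect3 (Pearson r = 0.995), Vinc (0.992), CG6845 (0.992), Rpn3 (0.992) and ppk29 (0.988). This likeness is across 8 arrays of 2 fractions, and likeness within a fraction was not tested. Their translated-minus-total differences were much smaller than that of DCP2, from -0.42 for Rpn3 to -1.48 for Vinc in DENR cells and from -0.32 for Rpn3 to -1.30 for Vinc in GFP cells.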

How the data were processed

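The authors deposited 1 log2 signal per probe set and array, computed with RMA according to the submitters' processing notes. No RMA version or settings are stated, nor whether the 8 arrays were processed as 1 set. The log2 scale was read off the values, which lie between 0.83 and 12.88. RMA brings arrays to a common distribution, so a shift of most transcripts is removed. Detection calls were not used. Precision is limited by the few arrays.

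Of 18952 probe sets, 183 controls were left out. For genes with several probe sets, the one with the highest mean was taken. The brightest 60% of 17105 features (mean at least 2.12) were tested. Symbols were matched to RefSeq (Release 6 assembly) by gene identifier, and Dcp1 by name in another case with the same identifier.

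Group means of the 4 groups were fitted once with limma (version 3.58.1 in R 4.3.3), with two-sided moderated tests, Benjamini-Hochberg adjustment over all 10263 features and a threshold of 0.05. The fit was run on simulated data with independent noise, which cannot show how array-wide deviations, as of DENR total replicate 1, affect it. The genes and lists were chosen with earlier results of these data known. All 10 genes are named. Of each wider list, at most 4 called genes by smallest p are named beside the counts, and for DCP2 the 5 genes with the highest correlation. The genes gw, Fmr1 and pum are named in addition, for their lost calls. Genes mentioned as not passing were chosen after their values were seen. Alternatives were other scalings and filters, all probe sets, a trend with a robust prior, only the arrays compared, blocks by replicate number, a random effect of culture, and each of the 8 arrays left out. A crossed replicate block was added after seeing the data.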

Additional observations from a re-analysis of the deposited data

How the results depend on the processing

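Of 752 recomputed values of the 8 genes in 5 comparisons, 732 kept their side of the threshold or moved by less than the spread within groups, 10 lost a call, 1 gained one and 9 moved further without a call. No called value changed sign. The sign of an uncalled value changed 17 times. In translated minus total RNA of DENR cells, DCP2 (-3.75 to -3.40), me31B (1.85 to 2.69) and Not3 (1.02 to 1.40) were called in all 19 alternatives. The number of the 8 genes called there was 5, and 3 to 5 with 1 array left out, the 3 without DENR translated replicate 1.

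In total RNA, DENR minus GFP, the count of 1 became 0 with array medians brought to 1 value, 0 with only the arrays compared, 2 with the crossed replicate block (Patr-1 and DCP2), and 0 to 1 with 1 array left out. In translated RNA and in ribosome loading the count was 0 in every alternative run. The median of the 8 genes in GFP cells, 0.118, ran from 0.068 with quantile normalization within each fraction to 0.215 with array medians brought to 1 value.

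Same-numbered arrays deviated together within a fraction (r = 0.379 in total and 0.273 in translated RNA) and oppositely between fractions (-0.379 to -0.203), so the numbers were not taken to pair the arrays. Some sharing within a fraction is not excluded by these values. With the replicate block the numbers of genes called were 1, 0, 0 and 5, as without it. The crossed block called 903 features in total RNA, against 162. Its call of DCP2 there is not used as a result, because the GFP arrays entered the choice of DCP2. Over the alternatives the features called ran from 39 to 903 in total RNA, 23 to 413 in translated RNA, 0 to 6 in loading and 609 to 2376 between fractions in DENR cells, where 1537 were called. The causes were not tested. Low signals, as of Edc3, of DCP2 in translated RNA and of smg in total RNA, limit what these arrays can show.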
